A study of Mus musculus with 6 samples.

Results

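DNA replication copies the genome once per division. The 40 genes described here encode part of the machinery that does it, together with some of the enzymes that supply its building blocks. They were taken by name: every probe that is not a control and whose transcript maps through RefSeq to 1 of 40 listed symbols was collected, and the brightest probe stood for each gene. All 40 genes had a probe on the array, 57 probes in all, among 22911 genes that could be named. Their values were read on 6 one-colour arrays of mouse lung RNA, 2 arrays for each of 3 groups. Myofibroblasts, contractile cells that lay down matrix in a scar, were sorted as CD49e+Sca1-Lin- cells from the lungs of male mice given bleomycin, a drug that injures the lung. Steady-state fibroblasts were sorted as CD140a+Lin- cells from untreated male mice, and homogenates of whole untreated male lung served as the controls. Sorted sets held 50000 cells, and 5.8 ng of RNA was labelled for each array. Strain, age, the dose of bleomycin and the time after it are not given in the sources used here, nor is it said whether the 2 samples of a group came from different mice. The p-values therefore reflect only how far these samples scatter, and that scatter may be technical. Gate and treatment change together between the sorted groups, so neither can be told apart from the other.

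Replication starts with licensing, when the origin recognition complex, Cdc6 and Cdt1 load the ring of Mcm subunits onto DNA. The ring becomes an active helicase when Cdc45 and the GINS complex join it, and polymerases then copy both strands while a clamp, its loader, single-strand binding proteins, nucleases and a ligase keep the fork moving. Many of these genes are transcribed in G1 and S phase under E2F factors, so their transcripts are commonly read as a sign of dividing cells. Resting lung fibroblasts divide rarely, and injury is known to drive fibroblasts to proliferate.

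Values are given as relative signal, the processed spot signal divided by the 75th percentile of its array, so a value of 1 means as bright as that percentile. They compare arrays for 1 probe and not genes with each other. Differences are on the log2 scale, where 1 is a 2-fold difference, with limma's standard error (SE), and a gene is called when limma's Benjamini-Hochberg adjusted p over all genes tested in the comparison is under 0.05. The arrays resembled each other in quality: 65.5% to 73.4% of spots were well above background and none was saturated. Myofibroblasts read higher than fibroblasts for 6 of 6 myofibroblast markers and for Itga5, which encodes CD49e, while Pdgfra, which encodes CD140a, and Ly6a, which encodes Sca1, were lower, so the labels and these markers point the same way. Summed signal of 11 epithelial markers was 12.2 to 18.1 in myofibroblasts, 72.6 to 122 in fibroblasts and 848 to 859 in homogenates, most of it from Scgb1a1. Summed endothelial signal over 7 markers was 0.185 to 0.257, 0.356 to 0.381 and 70.2 to 71.0 in the same order. Summed signal of 14 immune markers was 176.6 to 184.8 in myofibroblasts, 176.3 to 193.5 in fibroblasts and 334.6 to 347.1 in homogenates. Itgam and Csf1r read alike in all 3 groups and made up most of the sums of the sorted groups. The other 12 summed to 1.80 to 3.49, 1.35 to 1.72 and 178 to 183 in the same order. S100a9, S100a8 and Ncr1 were not above background on any sorted array. Marco was the 1 immune marker called higher in myofibroblasts, at 0.458 and 1.84 against 0.111 and 0.107. Sums of 5 mesothelial and 3 erythroid markers stayed under 1 in both sorted groups. Summed signal of 8 fibroblast markers was 998 to 1037 in myofibroblasts, 410 to 540 in fibroblasts and 46.1 to 48.6 in homogenates. These 8 went both ways between the sorted groups. In myofibroblasts 3 were called higher, 2 were called lower and 3 were not called, with a median log2 difference of 0.19. The part of other cell types in the differences below was not tested.

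Myofibroblasts expressed the replication genes at a higher level than fibroblasts: of 39 genes that could be tested, 22 were called higher and 0 lower. Over all 16008 genes tested, 9.21% were called higher and 8.01% lower. Higher genes made up 53.5% of these calls, or 66.2% when arrays were scaled to their medians and 25.4% in the authors' deposited normalized table. The median log2 difference of the 39 genes was 1.52, beside -0.06 over all genes tested, and 0.94 with normexp background correction. The 22 called genes ranged from 0.95 for Rpa3 to 5.74 for Exo1, whose fibroblast signal was at background. The 17 genes not called ranged from -0.26 to 2.60, and 13 of them were positive. Both myofibroblast arrays lay above both fibroblast arrays for 30 of 39 genes, against 30.4% of all genes. In bulk samples, more cells that express a gene and more of its RNA per cell cannot be told apart. The count depended on which arrays were fitted and how they were weighted. It was 10 when only the 4 arrays of the sorted groups were fitted, where 4.31% of all genes were called higher. None of the 39 genes was called lower in that fit. With array weights by group the count was also 10, where 4.05% of all genes were called higher. Leaving out any 1 array moved the median difference over 1.31 to 1.57. Cdt1, Mcm3, Mcm5, Mcm7, Exo1, Uhrf1, Rrm1 and Tyms stayed called in every alternative that tested them.

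The size of single differences depended on how dim signal was treated. With normexp correction 9 of the 22 called genes had a difference over 1.5 times smaller, and 8 of these remained called. Exo1 then differed by 1.62, Cdt1 by 1.18, Mcm5 by 1.88 and Tk1 by 1.94. Rfc5 differed by 1.11, Pola1 by 0.94, Mcm10 by 0.82 and Gins1 by 0.68. Chaf1a, at 0.59, lost its call (limma adjusted p = 0.0532). Exo1 differed by 3.42 with a floor on dim signal. With a gene's probes averaged, Tk1 differed by 4.84, and Pola1 by 0.84 without a call (adjusted p = 0.171). Rpa3 differed by 0.54 without a call in the authors' deposited normalized table (adjusted p = 0.142).

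**Figure D1:**
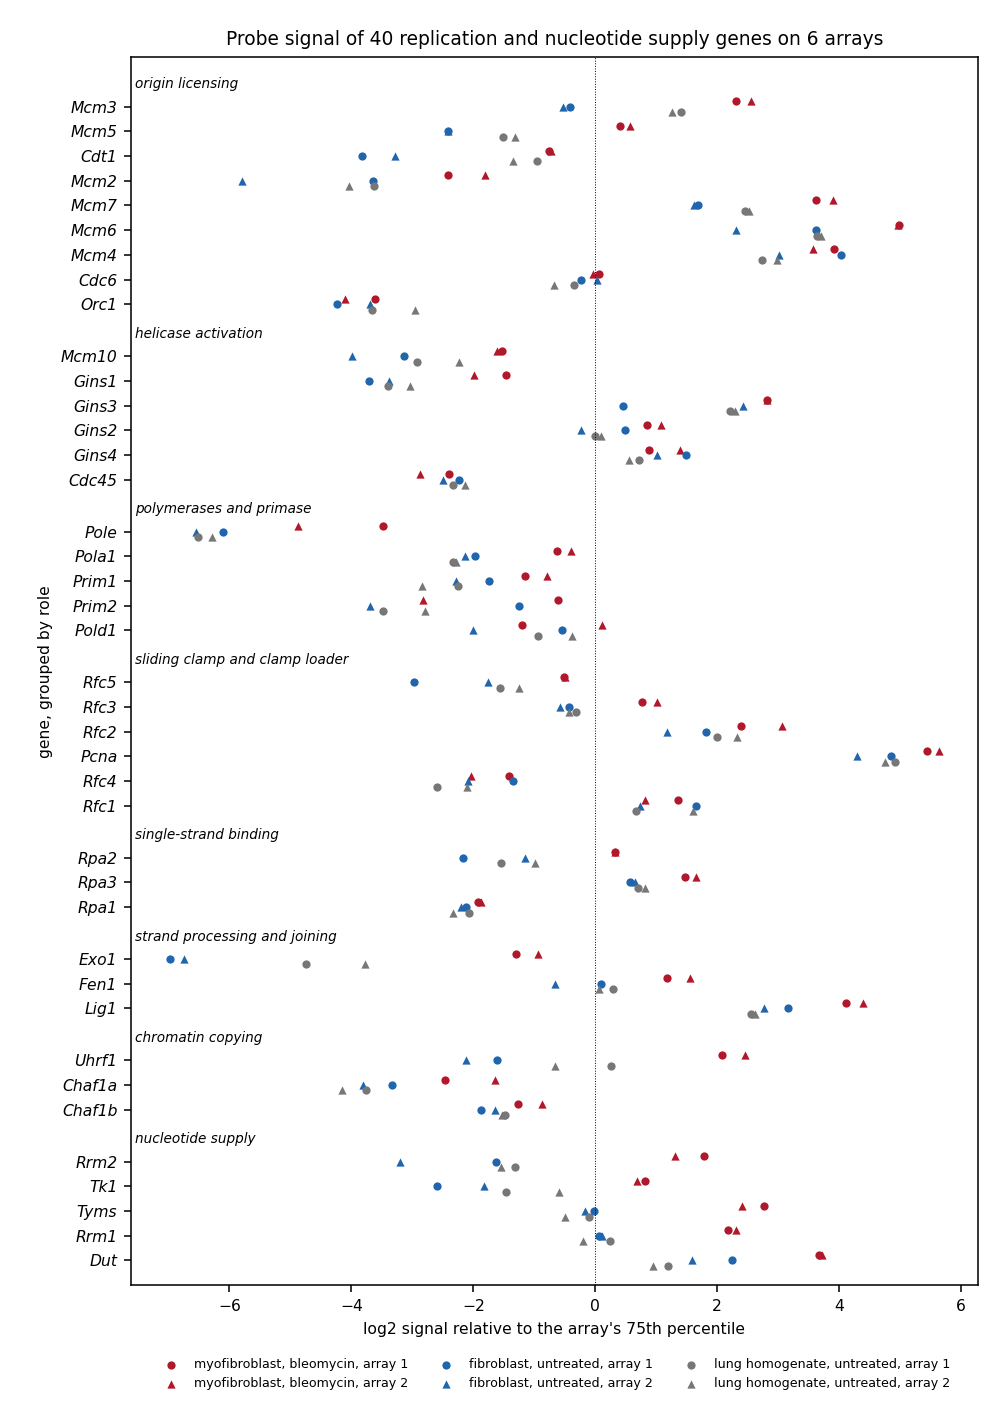
Log2 signal of each gene's brightest probe relative to the 75th percentile of its array (x axis) for 40 genes grouped by role (y axis), with 1 point per array and no averaging; circles are replicate 1 and triangles replicate 2. Myofibroblast points lie to the right of both fibroblast points for all 5 nucleotide supply genes, while for Cdc6, Orc1 and Rfc4 the points of the 2 sorted groups overlap.

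Among the 9 licensing genes, 5 were called higher in myofibroblasts. Of these, 4 are subunits of the Mcm ring, and the other is Cdt1, the loading factor. Mcm3 read 4.95 and 5.89 in myofibroblasts, 0.748 and 0.695 in fibroblasts and 2.66 and 2.40 in homogenates. The 3 groups did not overlap, with homogenate in between: myofibroblasts exceeded fibroblasts by 2.90 ± 0.25 (SE; limma adjusted p = 0.00317). Mcm5 read 1.32 and 1.49, then 0.187 and 0.188, then 0.351 and 0.401 in the same order of groups. It showed the same order of groups, and its difference between the sorted groups was 2.90 ± 0.24 (adjusted p = 0.00301). Cdt1 stood at 0.590 and 0.608 in myofibroblasts, 0.0708 and 0.102 in fibroblasts and 0.517 and 0.392 in homogenates. For Cdt1 the fibroblasts were the group apart, 2.81 ± 0.30 below myofibroblasts (adjusted p = 0.00538), while myofibroblasts and homogenates differed by 0.41 ± 0.30 (adjusted p = 0.35). Mcm7 and Mcm6 were called with differences of 2.10 ± 0.24 and 2.01 ± 0.45. Mcm6 was uneven between the fibroblast arrays, at 12.3 and 4.96 against 31.7 and 31.3 in myofibroblasts.

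Mcm4 and Mcm2, also subunits of the Mcm ring, were not called, and no test compared the subunits with each other. Mcm4 read 15.0 and 11.9 in myofibroblasts and 16.4 and 8.12 in fibroblasts, overlapping pairs with a difference of 0.21 ± 0.40 (adjusted p = 0.733). Mcm2 was dim throughout, at 0.188 and 0.284 in myofibroblasts, 0.0803 and 0.0180 in fibroblasts and 0.0812 and 0.0611 in homogenates. Its 1 fibroblast array above background lay below both myofibroblast arrays, and the difference of 2.60 ± 0.72, at least 3.78-fold with the other array held at the detection limit, missed the threshold (adjusted p = 0.0619). The floor on dim signal called Mcm2 (adjusted p = 0.0228), as did leaving out either fibroblast array (0.0157 without fibroblast replicate 1 and 0.0455 without fibroblast replicate 2). Orc1, the origin recognition subunit among the 40, had the smallest licensing difference. Its brightest probe gave 0.0814 and 0.0581 in myofibroblasts, 0.0528 and 0.0777 in fibroblasts and 0.0791 and 0.129 in homogenates. The sorted groups overlapped (0.10 ± 0.38, adjusted p = 0.866), and both fibroblast arrays lay below both homogenate arrays. Cdc6 differed by 0.11 ± 0.26 on its brightest probe.

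The promoters of these genes are known for E2F sites, so the RefSeq promoter windows (GRCm38.p6), 250 bases before to 50 after a gene's start, were searched for TTTCCCGC, TTTCGCGC, TTTGCCGC and TTTGGCGC on both strands. A window was at hand for 32 of the 40 genes. A match was found for 13 of them (40.6%), against 2.6% of all 27025 genes with a window. Of the 20 called genes with a window 9 held a match, and of the 12 others 4 did. TTTCGCGC was found for 7 of these genes, TTTCCCGC for 6, TTTGGCGC for 5 and TTTGCCGC for 0. Mcm6 held 3 matches, at bases -110, -106 and -47 from the start, the first pair overlapping. Matches were found also for Mcm7, Rfc3, Lig1, Pold1, Gins3, Cdc6 and Pola1. CCAAT, the NF-Y box, was present for 65.6% of these genes, 85.7% of 21 mitosis genes and 41.1% of all. TTTGAA, the CHR element known from promoters of late cell cycle genes, was present for 12.5% of these genes, 20.2% of all and 76.2% of the mitosis genes, of which 4.76% held an E2F match. In the 150 bases before the start alone, an E2F match was found for 21.9% of the replication genes and 1.44% of all, and TTTGAA for 33.3% of the mitosis genes and 10.5% of all. A match is a run of letters and not a measured binding site. The nucleotide supply genes Rrm1, Rrm2, Tyms, Dut and Tk1 each had a window and held no match. Rrm2 (3.96) and Tk1 (2.96) differed more between the sorted groups than Mcm3, Mcm5 and Cdt1. The sequences printed were picked partly by their matches and so do not show whether matches go with large differences. The genes shown are the 4 with the largest differences between the sorted groups that hold a match and the 2 with the smallest differences among genes with a window. Each is the strand of the gene read 5' to 3', and capitals mark E2F matches, which read as the reverse complement where the match is on the other strand. For Mcm3 and Cdt1 every match lay after the start, and the 30 bases that hold it are printed; for the others the 250 bases before the start are.
Uhrf1: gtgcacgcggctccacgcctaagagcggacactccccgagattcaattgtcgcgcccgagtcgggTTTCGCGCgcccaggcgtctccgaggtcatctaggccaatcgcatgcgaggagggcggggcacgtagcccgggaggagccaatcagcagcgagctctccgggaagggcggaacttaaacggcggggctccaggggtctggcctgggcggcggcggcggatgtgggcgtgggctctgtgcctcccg
Mcm3: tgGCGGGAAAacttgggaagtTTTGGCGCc
Mcm5: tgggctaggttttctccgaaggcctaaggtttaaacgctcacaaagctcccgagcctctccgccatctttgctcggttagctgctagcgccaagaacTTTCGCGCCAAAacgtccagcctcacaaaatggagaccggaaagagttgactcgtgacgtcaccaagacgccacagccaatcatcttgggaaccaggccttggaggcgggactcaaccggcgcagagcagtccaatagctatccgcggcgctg
Cdt1: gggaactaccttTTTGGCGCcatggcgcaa
Rfc4: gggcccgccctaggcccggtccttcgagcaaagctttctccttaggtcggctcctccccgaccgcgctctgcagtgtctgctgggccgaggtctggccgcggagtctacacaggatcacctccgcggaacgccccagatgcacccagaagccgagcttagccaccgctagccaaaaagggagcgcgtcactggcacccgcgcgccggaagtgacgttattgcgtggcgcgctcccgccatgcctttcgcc
Orc1: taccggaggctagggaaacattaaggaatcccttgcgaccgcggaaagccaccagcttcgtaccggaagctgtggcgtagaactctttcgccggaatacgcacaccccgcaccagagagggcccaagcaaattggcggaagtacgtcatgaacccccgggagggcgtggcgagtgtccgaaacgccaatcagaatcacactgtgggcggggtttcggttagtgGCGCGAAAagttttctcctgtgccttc
The Uhrf1 stretch is chr17:56304063-56304312 on the plus strand. The Mcm3 site is chr1:20820266-20820295 on the minus strand and holds 2 matches, the first on the opposite strand. Mcm5 is shown at chr8:75109259-75109508 on the plus strand, where the 2 matches, on opposite strands, overlap in 1 run of capitals. The Cdt1 site is chr8:122568035-122568064 on the plus strand. Rfc4 is shown at chr16:23127731-23127980 on the minus strand and Orc1 at chr4:108579204-108579453 on the plus strand. Rfc4 held no match to these letters in its window. Orc1, whose brightest probe differed by 0.10, held 1 close to its start.

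**Figure D2:**
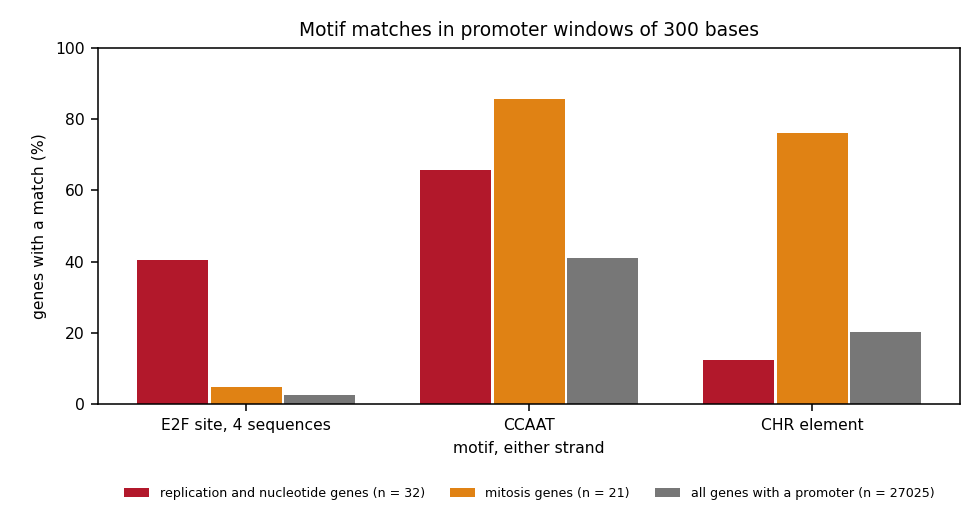
Share of genes (%) whose RefSeq promoter window of 300 bases holds at least 1 match on either strand, for the replication and nucleotide genes (n = 32), the mitosis genes (n = 21) and all genes with a window (n = 27025). The E2F bar is tallest for the replication genes at 40.6% and the CHR bar for the mitosis genes at 76.2%.

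Of the 6 genes that activate the helicase, Mcm10 and Gins1 were called higher in myofibroblasts. Mcm10, which helps open the loaded ring, read 0.347 and 0.329 in myofibroblasts, 0.114 and 0.0631 in fibroblasts and 0.132 and 0.212 in homogenates. Its sorted groups did not overlap, at a difference of 1.99 ± 0.40 (limma adjusted p = 0.0279). Gins1, a GINS subunit, read 0.361 and 0.252, then 0.0760 and 0.0961, then 0.0946 and 0.122. Myofibroblasts again stood above the other 2 groups (1.82 ± 0.31, adjusted p = 0.0193). Gins4 read 1.84 and 2.63 in myofibroblasts, 2.80 and 2.02 in fibroblasts and 1.65 and 1.46 in homogenates. The sorted groups overlapped on this brightest Gins4 probe, and the difference was -0.12 ± 0.31 (adjusted p = 0.811). Gins3 rested on an uneven fibroblast pair, at 1.37 and 5.39 against 7.06 and 7.08 in myofibroblasts, and was not called (adjusted p = 0.18). Cdc45 and Gins2 differed by -0.26 ± 0.29 and 0.84 ± 0.33 on their brightest probes, and neither was called.

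Among the polymerase and primase genes only Pola1 was called of the 4 that could be tested. Pola1, the catalytic subunit of the polymerase that starts each new strand, read 0.644 and 0.761 in myofibroblasts, 0.255 and 0.228 in fibroblasts and 0.198 and 0.205 in homogenates. Fibroblasts and homogenates lay close together, and myofibroblasts stood 1.54 ± 0.24 above fibroblasts (adjusted p = 0.0156). Prim1, the catalytic primase subunit, read 0.450 and 0.578, then 0.297 and 0.205, then 0.210 and 0.139. It was called against homogenate (1.58 ± 0.35, adjusted p = 0.0253) and not against fibroblasts (1.05 ± 0.35, adjusted p = 0.0933), although both myofibroblast arrays lay above both fibroblast arrays. Pold1, the catalytic subunit of the lagging-strand polymerase, read 0.435 and 1.07, then 0.684 and 0.25, then 0.522 and 0.771. All 3 groups overlapped for Pold1 (0.72 ± 0.65, adjusted p = 0.458). Prim2 varied 4.65-fold between the myofibroblast arrays and 5.42-fold between the fibroblast arrays, so its difference of 0.76 ± 1.03 says little. Pole, the catalytic subunit of the leading-strand polymerase, was above background on 1 myofibroblast array (0.0900) and on no other array, and it was not tested.

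For the sliding clamp and its loader, 2 of 6 genes were called. Pcna, the ring that holds polymerases to DNA, was bright in every group, at 43.6 and 49.9 in myofibroblasts, 28.9 and 19.7 in fibroblasts and 30.2 and 26.8 in homogenates. Both myofibroblast arrays lay above the other 4, but the difference of 0.97 ± 0.29 from fibroblasts missed the threshold (adjusted p = 0.0755); the call appeared without fibroblast replicate 1 (0.0392), with normexp background correction (0.0368) and with an intensity trend (0.0321). Among the loader subunits, Rfc5 read 0.697 and 0.708, then 0.127 and 0.294, then 0.337 and 0.420. Its difference was 1.86 ± 0.44 (adjusted p = 0.0423). Rfc3 read 1.70 and 2.01 in myofibroblasts, 0.744 and 0.674 in fibroblasts and 0.803 and 0.742 in homogenates. Fibroblasts and homogenates overlapped for Rfc3, with myofibroblasts 1.39 ± 0.24 above fibroblasts (adjusted p = 0.0204). Rfc4 read 0.375 and 0.242, then 0.392 and 0.236, then 0.165 and 0.233, and the sorted groups overlapped fully (-0.01 ± 0.40, adjusted p = 0.985). Rfc1, the largest loader subunit, differed by -0.11 ± 0.48, and Rfc2 by 1.24 ± 0.37 without a call (adjusted p = 0.074).

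Of the 3 subunits of the single-strand binding protein RPA, 2 were called higher in myofibroblasts. Rpa2 read 1.25 on both myofibroblast arrays, 0.223 and 0.449 in fibroblasts and 0.344 and 0.505 in homogenates. It was called with a difference of 1.99 ± 0.41 (limma adjusted p = 0.031). Rpa3 read 2.77 and 3.15, then 1.49 and 1.57, then 1.63 and 1.77, which was a smaller step of 0.95 ± 0.24 (adjusted p = 0.049). Rpa1, the largest subunit, read 0.264 and 0.274, then 0.231 and 0.217, then 0.239 and 0.199. Its myofibroblast arrays were the highest of the 6, by a margin that was not called (0.26 ± 0.24, adjusted p = 0.471). No test compared the subunits with each other.

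All 3 genes that finish Okazaki fragments or trim DNA ends were called. Exo1, a nuclease that also acts in mismatch repair, read 0.404 and 0.520 in myofibroblasts, 0.00791 and 0.00935 in fibroblasts and 0.0374 and 0.0728 in homogenates. Neither fibroblast array and only 1 homogenate array was above background, so its level was at least 10.7-fold higher than in fibroblasts (adjusted p = 0.00178) and at least 8.33-fold higher than in homogenates (adjusted p = 0.00381). Fen1, the flap nuclease, read 2.25 and 2.95, then 1.07 and 0.634, then 1.22 and 1.04. The fibroblasts and homogenates overlapped, and the difference between the sorted groups was 1.65 ± 0.35 (adjusted p = 0.0323). Lig1, the ligase that seals fragments, read 17.2 and 21.1, then 8.93 and 6.82, then 5.89 and 6.15. Myofibroblasts stood 1.29 ± 0.27 above fibroblasts (adjusted p = 0.0318).

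Genes that copy chromatin marks behind the fork gave 2 calls of 3. Uhrf1, which brings the maintenance methyltransferase to newly copied DNA, read 4.21 and 5.46 in myofibroblasts, 0.327 and 0.231 in fibroblasts and 1.19 and 0.634 in homogenates. The 3 groups did not overlap, and the difference of 4.12 ± 0.40 between the sorted groups (adjusted p = 0.00425) was the largest among members measured above background on all 4 sorted arrays. Chaf1a, the large subunit of the histone chaperone CAF-1, read 0.182 and 0.320, then 0.0994 and 0.0710, then 0.0735 and 0.0564. Its call was marginal (1.52 ± 0.38, adjusted p = 0.049). Chaf1b, its partner, read 0.414 and 0.545, then 0.272 and 0.319, then 0.357 and 0.345, and was not called (0.69 ± 0.27, adjusted p = 0.128).

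All 5 nucleotide supply genes were called higher in myofibroblasts, both against fibroblasts and against homogenate. Rrm2, the cell cycle-regulated small subunit of ribonucleotide reductase, read 3.43 and 2.48 in myofibroblasts, 0.324 and 0.109 in fibroblasts and 0.402 and 0.341 in homogenates. Fibroblasts and homogenates lay below 0.5, with myofibroblasts 3.96 ± 0.55 above fibroblasts (limma adjusted p = 0.0106). Rrm1, the large subunit, read 4.53 and 4.94, then 1.04 and 1.08, then 1.19 and 0.873. Its difference was 2.16 ± 0.27 (adjusted p = 0.00773). Tyms, which makes thymidylate, read 6.81 and 5.30, then 0.991 and 0.887, then 0.935 and 0.711. Myofibroblasts exceeded fibroblasts by 2.68 ± 0.28 (adjusted p = 0.00508) and homogenates by 2.88 ± 0.28 (adjusted p = 0.00169). Tk1, the salvage thymidine kinase, read 1.76 and 1.60, then 0.165 and 0.283, then 0.362 and 0.661. Fibroblasts were lowest and did not overlap with homogenates, and the sorted groups differed by 2.96 ± 0.42 (adjusted p = 0.0116). Dut, which removes dUTP and so keeps uracil out of DNA, read 12.7 and 13.2, then 4.73 and 3.01, then 2.29 and 1.93. Its difference of 1.77 ± 0.31 was the smallest of the 5 (adjusted p = 0.0198).

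**Figure D3:**
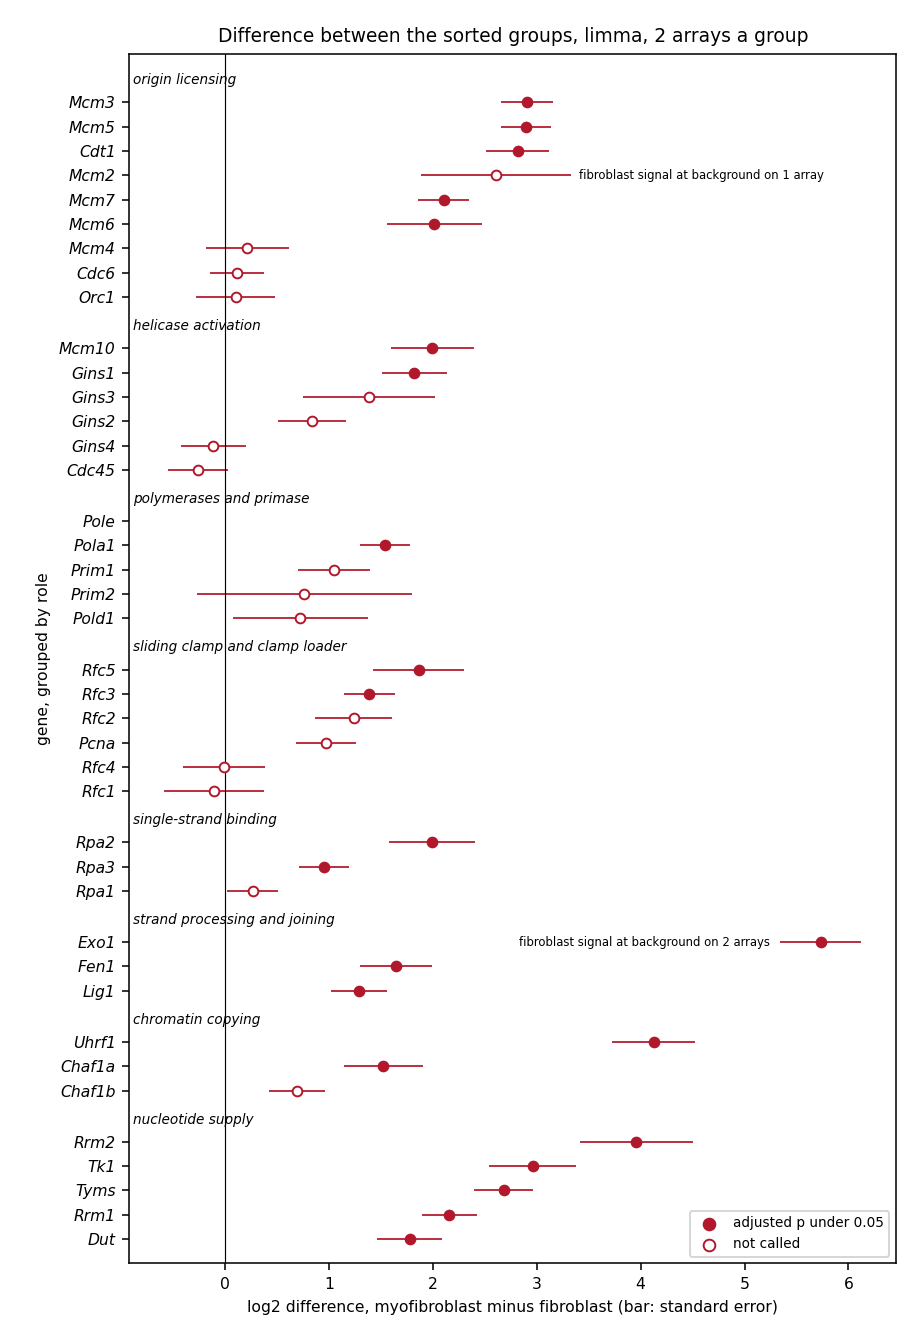
Log2 difference between myofibroblasts and fibroblasts (x axis) with limma's standard error as bars, for 39 tested genes grouped by role (y axis); filled points have an adjusted p under 0.05, and Pole has no point because it was not tested. All 5 nucleotide supply genes and all 3 strand processing genes are filled, from 1.29 for Lig1 to 5.74 for Exo1, and the points near 0 are Mcm4, Cdc6, Orc1, Gins4, Cdc45, Rfc4, Rfc1 and Rpa1.

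Against whole lung the replication genes of myofibroblasts also read higher. Of 39 genes tested, 17 were called higher and 0 lower, where 11.9% of 17165 genes were called higher and 15% lower. Higher genes made up 44.3% of these calls, or 54.6% with normexp correction, 66.8% when arrays were scaled to their medians and 20.6% in the authors' deposited normalized table. The median log2 difference was 1.19, beside -0.01 over all genes, and 0.69 in the authors' deposited normalized table. The count was 10 in that table, where 6.91% of all genes were called higher. Mcm3 (0.60), Mcm7 (0.77), Rfc3 (0.76) and Gins1 (0.99) were among those no longer called there. Leaving out 1 array moved the median over 1.09 to 1.22, and the count and the share over all genes changed too. With normexp correction 5 called genes had a difference over 1.5 times smaller and stayed called, Exo1 at 1.44, Chaf1a at 0.83, Gins1 at 0.75, Pola1 at 1.18 and Prim1 at 0.95. Mcm7 stayed called at 0.84 with quantile normalization. With only the 4 arrays of the 2 groups the count was 26, where 21.8% of all genes were called higher and 21.2% lower. Dut (2.62 ± 0.31, limma adjusted p = 0.00318), Rrm1 (2.22 ± 0.27, adjusted p = 0.00339), Tyms and Exo1 stayed called in every alternative that tested them. Homogenate had the higher sums of immune, endothelial and epithelial markers given above, whose part in these differences was not tested, and its arrays lay in another row of the slide than those of the sorted samples, so the tissue and the row cannot be told apart.

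Fibroblasts read lower than whole lung for 4 of 38 genes tested and higher for 0, where 11.8% of 17065 genes were called lower and 8.09% higher, so the share of members called lower is close to that of all genes. Higher genes made up 40.7% of all calls, or 51.4% with median scaling. The 4 were Cdt1 (-2.40 ± 0.30, adjusted p = 0.00446), Mcm3 (-1.81 ± 0.25, adjusted p = 0.00584), Mcm5 (-1.0 ± 0.24, adjusted p = 0.0392) and Uhrf1 (-1.66 ± 0.40, adjusted p = 0.0398). Cdt1 was the 1 gene of these called in every alternative, at -0.90 with normexp correction, where Mcm5 (-0.41) and Uhrf1 (-1.04) lost their calls. The median over the 38 genes was -0.25, beside 0.03 over all genes, and with median scaling it turned to 0.03 beside 0.31 over all genes. Leaving out 1 array moved the median over -0.34 to -0.0291, and the count and the shares over all genes changed too. None of the 5 nucleotide supply genes was called here, with differences from -1.18 ± 0.42 for Tk1 to 0.84 ± 0.31 for Dut.

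The 2 fibroblast arrays differed from each other more than the arrays of the other groups did. Among members above background on both arrays of a group, 8 of 37 were over 2-fold apart in fibroblasts (Mcm4, Mcm6, Gins3, Prim2, Pold1, Rfc5, Rpa2 and Rrm2), 2 of 39 in myofibroblasts and 0 of 38 in homogenates. Over all genes the shares were 23.5%, 7.84% and 2.83%. Members read higher on fibroblast replicate 1 for 25 of 37 genes.

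Probes of 1 gene did not always give 1 answer. More than 1 probe was present for 16 of the genes, and 16 of their 17 other probes could be tested in a fit of all 23262 named probes, of which 8.58% were called higher in myofibroblasts. The other probe gave the same call as the brightest for 12 of 16 and a larger difference for 12 of 16, and none was negative. The brightest Gins2 probe was not called and read 1.80 and 2.11 in myofibroblasts against 1.41 and 0.846 in fibroblasts. Its other probe read 1.37 and 1.65 against 0.0393 and 0.0446, at background in fibroblasts, which is at least 35-fold (limma adjusted p = 0.00216). For Cdc45 the brightest probe read 0.190 and 0.137 against 0.212 and 0.177, while the other read 0.279 and 0.548 against 0.0324 and 0.0481, at least 8.97-fold (adjusted p = 0.0244). Both genes would count as called on these dimmer probes. Tk1 and Uhrf1 were called on both probes, with the dimmer one at least 24.2-fold and at least 49.9-fold higher in myofibroblasts. The dimmer Cdc6 probe was at least 3.49-fold higher and not called (adjusted p = 0.149), since 1 fibroblast array read 0.121 and the other was at background. The dimmer Orc1 probe was at background on both fibroblast arrays, at least 1.89-fold higher in myofibroblasts and not called (adjusted p = 0.195). For Gins4 the dimmer probe differed by 0.91 ± 0.34 without a call (adjusted p = 0.122), with both myofibroblast arrays above both fibroblast arrays. In the opposite direction, the second Pola1 probe differed by 0.15 ± 0.64 and the second Rfc3 probe by 0.95 ± 0.48, neither called. Neither Rfc4 probe was called. With 1 row per probe, Chaf1a (adjusted p = 0.0546) and Rpa3 (adjusted p = 0.0591) fell just outside the threshold. Probe sequences are not used here, so which transcripts or near copies each probe reads was not tested.

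**Figure D4:**
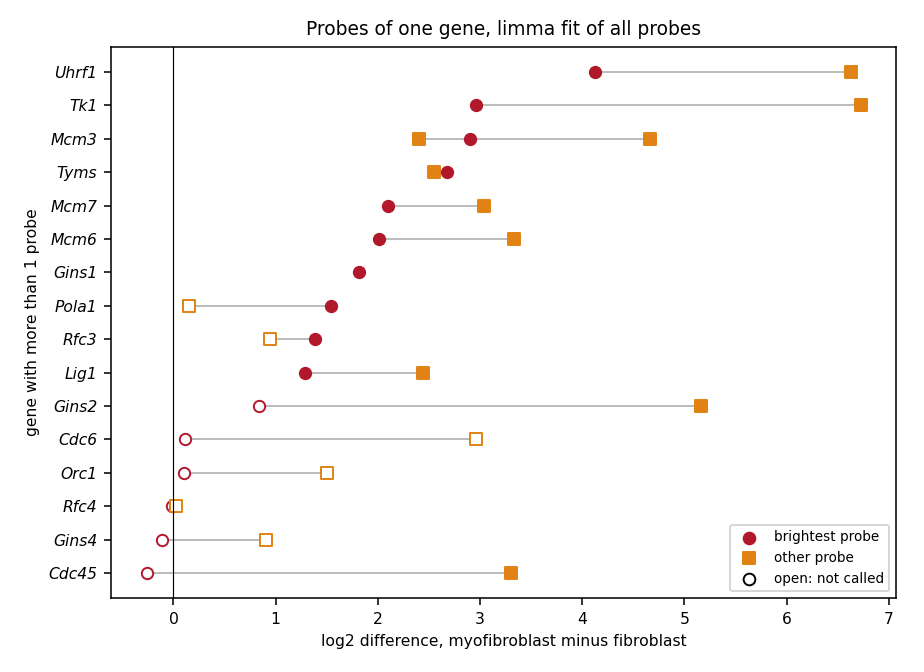
Log2 difference between myofibroblasts and fibroblasts (x axis) for every tested probe of the 16 genes with more than 1 probe (y axis), from 1 limma fit of all named probes; circles are the brightest probe, squares the others, filled where the adjusted p is under 0.05. The widest gaps are at Gins2, Tk1, Cdc45, Cdc6 and Uhrf1, where the other probe was at background on 1 or both fibroblast arrays.

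Genes around this machinery were read from lists of other replication factors, other nucleotide enzymes, cell cycle regulators and mitosis genes. Their counts stand beside the shares over all genes tested. Between the sorted groups 9.21% of all genes were called higher in myofibroblasts and 8.01% lower, with a median of -0.06. Myofibroblasts were called higher than homogenate for 11.9% of all genes and lower for 15%, and fibroblasts for 8.09% and 11.8%. Of 39 other replication genes tested between the sorted groups, 9 were called higher in myofibroblasts and 2 lower, with a median of 0.62. Dbf4, the activator of the Cdc7 kinase that fires origins, read 0.316 and 0.313 in myofibroblasts, 0.00788 and 0.0159 in fibroblasts and 0.145 and 0.13 in homogenates. It was at background in fibroblasts and at least 7.33-fold higher in myofibroblasts (limma adjusted p = 0.00262). Clspn, a fork checkpoint protein, was at least 12.5-fold higher (adjusted p = 0.00823), from 0.420 and 0.735 against a background of 0.0427 and 0.0151. The 2 lower genes were Asf1a, a histone chaperone (0.0976 and 0.0528 against 0.297 and 0.22; -1.83 ± 0.37, adjusted p = 0.0293), and Mcm9, which acts in repair and is no part of the Mcm ring (0.478 and 0.343 against 1.19 and 1.06; -1.47 ± 0.31, adjusted p = 0.0314). Against homogenate, myofibroblasts were higher for 6 of 40 genes of this list and lower for 3, and fibroblasts were higher for 0 of 36 and lower for 4.

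In the list of other nucleotide enzymes 9 of 26 were higher and 1 lower, with a median of 1.15. Mthfd2, a mitochondrial folate enzyme, read 3.89 and 5.74 in myofibroblasts, 0.505 and 0.148 in fibroblasts and 0.704 and 0.785 in homogenates (4.11 ± 0.60 between the sorted groups, adjusted p = 0.0127). Nme1, a nucleoside diphosphate kinase, read 5.49 and 6.12 against 0.119 and 1.08, fibroblast arrays far apart (4.02 ± 0.98, adjusted p = 0.0467). The 1 lower gene was Samhd1, which breaks down deoxynucleotides. It read 1.46 and 1.53 in myofibroblasts, 8.87 and 4.25 in fibroblasts and 7.61 and 8.31 in homogenates, so myofibroblasts were the group apart (-2.04 ± 0.39, adjusted p = 0.0255). Rrm2b, the reductase subunit known for induction by p53, read 0.314 and 0.241 against 0.201 and 0.474, with homogenates at 0.419 and 0.472, and was not called (-0.17 ± 0.45, adjusted p = 0.811). Dguok, a mitochondrial kinase, differed by -0.66 ± 0.29, also without a call. Against homogenate, myofibroblasts were higher for 8 of 27 of these enzymes and lower for 1, and fibroblasts were lower for 1.

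Of 20 E2F, pocket protein and MuvB genes, 7 were higher and 1 lower, with a median of 0.69. E2f1, an activator, read 1.26 and 1.59 in myofibroblasts, 0.597 and 0.672 in fibroblasts and 0.594 and 0.760 in homogenates (1.16 ± 0.27, adjusted p = 0.0427). The repressor E2f7 read 3.74 and 3.16 against 1.61 and 1.77, with homogenates at 1.48 and 1.56 (1.02 ± 0.24, adjusted p = 0.0431). E2f8, its close relative, was at background in fibroblasts and at least 9.42-fold higher (0.335 and 0.486 against 0.0226 and 0.00928, homogenates 0.134 and 0.194; adjusted p = 0.00496). Foxm1, a factor for late cell cycle genes, read 1.89 and 0.966 against 0.0453 and 0.00997, 1 fibroblast array at background, with homogenates at 0.134 and 0.127. It was at least 29.4-fold higher (adjusted p = 0.00808). Rbl2, the pocket protein p130 of resting cells, was the 1 lower gene (0.283 and 0.294 against 0.96 and 0.568; -1.36 ± 0.32, adjusted p = 0.0438). E2f4, a repressor partner of p130, read 0.128 and 0.0977 against 0.281 and 0.150 without a call (adjusted p = 0.176). E2f2, another activator, read 0.303 and 0.399 in myofibroblasts, 0.0149 and 0.0163 in fibroblasts and 1.19 and 1.05 in homogenates. Its myofibroblast level was at least 8.11-fold higher than in fibroblasts, at background (limma adjusted p = 0.00132), and lower than in homogenates (-1.69 ± 0.27, adjusted p = 0.00855). Against homogenate, myofibroblasts were higher for 5 of the 20 genes and lower for 2, and fibroblasts were higher for 0 and lower for 2.

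Cyclins and kinases of G1 and S were higher for 7 of 12 genes and lower for 0, with a median of 1.57. Ccna2, the S-phase cyclin, read 4.42 and 3.59 in myofibroblasts, 0.133 and 0.104 in fibroblasts and 0.248 and 0.384 in homogenates (5.08 ± 0.33, limma adjusted p = 0.0016). Ccnd1, a G1 cyclin, read 6.49 and 5.59 against 0.25 and 0.458, with homogenates at 2.69 and 2.34 (4.15 ± 0.36, adjusted p = 0.00324). Ccnd3 and Cdc25a had the smallest differences of the list, 0.64 ± 0.32 and 0.74 ± 0.36, without a call. Against homogenate, myofibroblasts were higher for 5 of 12 of these genes and lower for 0, and fibroblasts were higher for 0 of 11 and lower for 2.

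The 7 CDK inhibitors moved in both directions, 3 called higher and 2 lower. Cdkn1c, p57, read 0.298 and 0.443 in myofibroblasts, 5.66 and 4.10 in fibroblasts and 2.19 and 1.98 in homogenates. Its 3 groups did not overlap, and it had the largest fall of these lists (-3.73 ± 0.32, adjusted p = 0.00324). Cdkn1b, p27, read 1.55 and 1.11 against 5.13 and 3.08 (-1.60 ± 0.36, adjusted p = 0.0381). Cdkn2a and Cdkn2b rose: Cdkn2a from background to 0.263 and 0.413, at least 7.68-fold (adjusted p = 0.00319), and Cdkn2b from 0.215 and 0.0963 to 1.62 and 1.41 (3.40 ± 0.42, adjusted p = 0.00773). Cdkn1a, p21, read 3.58 and 4.82 in myofibroblasts, 1.12 and 0.953 in fibroblasts and 3.02 and 3.59 in homogenates. Fibroblasts were the group apart for Cdkn1a (2.01 ± 0.28, adjusted p = 0.011), and myofibroblasts and homogenates differed by 0.33 (adjusted p = 0.41). Against homogenate, myofibroblasts were higher for 4 of the 7 inhibitors and lower for 2, and fibroblasts were higher for 1 and lower for 3.

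Mitosis genes were called higher for 22 of 24 and lower for 0, with a median difference of 4.56. The median was 4.25 with 15 genes held at their bounds, 10 of them at background on both fibroblast arrays and 5 on 1. These 15 were tested only because both myofibroblast arrays were above background, so they could hardly be called lower. The count and the 0 lower rest in part on that filter. Over the 9 measured in both fibroblast arrays the median was 2.73, and over the 37 replication genes measured likewise it was 1.39; no test compared the lists. Mki67, a marker of cycling cells, read 5.96 and 5.31 in myofibroblasts, 0.241 and 0.186 in fibroblasts and 1.54 and 1.35 in homogenates (4.73 ± 0.27, adjusted p = 0.00132). Top2a, which untangles copied chromosomes, read 3.53 and 3.18 in myofibroblasts, 0.0333 and 0.0096 in fibroblasts, at background, and 0.405 and 0.482 in homogenates, at least 78.2-fold (adjusted p = 0.00258). Tpx2, a spindle factor, was at least 155-fold higher on uneven myofibroblast arrays of 11.9 and 4.18 (adjusted p = 0.00849). Aurkb (0.75 ± 0.25, not called) and Plk1 (1.23 ± 0.29, adjusted p = 0.0432) had the smallest differences of the list. Myofibroblasts were higher than homogenate for 19 of 24 mitosis genes and lower for 0. Against homogenate, fibroblasts were lower for 12 of 21 mitosis genes and higher for 0, Mki67 among them (-2.77 ± 0.27, adjusted p = 0.00181).

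**Figure D5:**
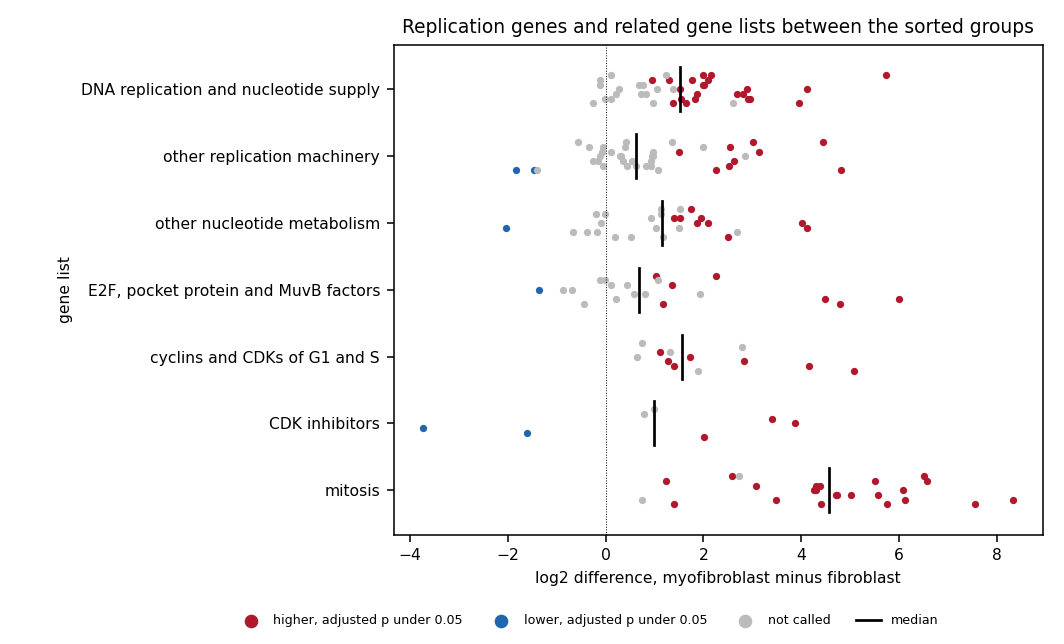
Log2 difference between myofibroblasts and fibroblasts (x axis) for each tested gene of the replication list and of 6 related lists (y axis), with 1 point per gene, coloured by limma call, and a bar at each median. The medians run from 0.62 for other replication machinery to 4.56 for mitosis, and the points furthest to the left are Cdkn1c, Samhd1 and Asf1a.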

How the data were processed

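The 6 one-colour Agilent arrays fall into 3 groups of 2 by their labels. Each array's deposited file gives spot intensity, written by Agilent Feature Extraction 12.0.3.1, per the file headers; its processed signal, with background subtracted, was used. A second, normalized intensity table from the authors equals the processed signal times 1 constant per array; its 3 columns of group means were not used. Outlier spots were left out, spots of a probe averaged, and log2 values of the deposited intensity taken minus the log2 of the array's 75th percentile. Of 56605 probes, 32994 were named through RefSeq accessions. Testing required a signal well above background on each of the 2 arrays in 1 or both groups compared. limma 3.58.1 (R 4.3.3; lmFit, eBayes, two-sided) fitted all 6 arrays in 1 model of 3 groups, with 3 residual degrees of freedom, 5.57 with the prior, with Benjamini-Hochberg adjustment over every gene tested in a comparison. The fit was tested on simulated data. All arrays came from 1 slide and 1 scan.

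The members and lists were chosen with earlier results of these data known. Values on all arrays are given for the 2 most changed members and the least changed one of each role, for Pcna, Mcm2, Rrm2, Tyms and Tk1, for members called lower or called only against homogenate, and for E2f1, E2f7, E2f8, Foxm1, Rrm2b, Cdkn1a, Mki67 and Top2a; the genes of the related lists with the largest differences each way are named with the values of the groups compared. E2f2, Mcm4, Mcm6, Gins3, Gins2, Cdc45, Rrm1 and Marco were added after their values were seen. Where a dim group was at background, a bound was computed against the lowest signal well above background of each array, or the probe's own where higher. Alternatives were the background correction, scaling, the authors' table, the dim-probe filter, a floor on dim signal, averaging a gene's probes, 1 row per probe, fitting 4 arrays alone, array weights, an intensity trend, the threshold, a replicate block, and omission of each array; normexp started from the median signal, as the mean is not used here.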

Additional observations from a re-analysis of the deposited data

How the results depend on the processing

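None of the 43 member calls of the 3 comparisons changed direction in any alternative. Between the sorted groups 8 of 22 calls, against homogenate 4 of 17 and between fibroblasts and homogenate 1 of 4 were kept in every alternative that tested them. Between the sorted groups the count fell from 22 to 10 with only the 4 arrays or with array weights, and to 8 at an adjusted p under 0.01. The shares of all genes called higher were 4.31%, 4.05% and 2.76% under these settings, from 9.21%. At an adjusted p under 0.01 myofibroblasts against homogenate gave 8 calls, where 4.24% of all genes were called higher. Fibroblasts against homogenate gave 2 at that threshold, where 7.12% of all genes were called lower. For myofibroblasts against homogenate the count was 10 in the authors' deposited values and 26 with only the 4 arrays. The shares of all genes called higher were 6.91% and 21.8% there, from 11.9%. Between fibroblasts and homogenate it was 2 with median scaling, with only the 4 arrays and with array weights. There 9.97%, 11% and 9.94% of all genes were called lower. Leaving out 1 array gave 8 to 23, 5 to 25 and 1 to 7 calls. The medians moved over 1.31 to 1.57, 1.09 to 1.22 and -0.34 to -0.0291 in the same fits. Normexp correction gave medians of 0.94, 0.83 and -0.0747, and the authors' deposited values 1.11 and 0.69 for the first 2. Against homogenate the myofibroblast median was 1.06 with quantile normalization and 1.64 with median scaling; between fibroblasts and homogenate median scaling turned it to 0.0283. The authors' table moved the median of all genes between the sorted groups from -0.06 to -0.47 and the share of calls that were higher from 53.5% to 25.4%; median scaling moved it to 0.11 and 66.2%. The same settings gave shares of 20.6% and 66.8% for myofibroblasts against homogenate (44.3% in the main values, 54.6% with normexp), and median scaling gave 51.4% between fibroblasts and homogenate (40.7%). Calls over all genes were 2758 between the sorted groups, 1264 with only the 4 arrays, 1142 with array weights, 710 and 4755 at adjusted p under 0.01 and 0.10, and 1030 to 5738 without 1 array. Against homogenate, myofibroblasts gave 4614 calls, and 7391, 7795 and 2073 under the first 3 of these and 1837 to 7212 without 1 array. Fibroblasts gave 3392, and 2027 where a signal above background was required on all arrays, 1726 at 0.01 and 1544 to 6159 without 1 array. Restricting the E2F search to 150 bases before the start found a match for 21.9% of members, against 1.44% of all genes.

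Deviations of same-numbered arrays correlated at 0.07, -0.01 and 0.04. These values show little shared deviation and cannot tell whether same-numbered samples were prepared together. With the replicate number as a replicate block the counts were 18, 16 and 3. The 2 arrays a group limit the precision, and dim probes near background give bounds only.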
